A study of Mus musculus with 768 samples.

Results

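The genes described here were Lgals3, Pdlim4, Rab3b, Gpnmb, Fcgr2b, Entpd2, F3, Aldh1a1, Rarres2 and Gsn, 10 of the 25700 genes in a table of read counts of single Schwann cells (SCs). They were selected on their measured levels in these cells, which were high in non-myelinating SCs and low in myelinating SCs, so their difference between those classes is given below as a description, with no test. The questions were whether each of them was read in all non-myelinating cells or in a subset, and which of them were read in the same cells. All 10 were in the table, each as 1 protein-coding gene matched by its mouse Ensembl identifier.

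The cells came from the sciatic nerve of mice at postnatal day 60 that carried P0Cre, the ReYFP reporter and βAct-DsRed. P0Cre switches on the yellow reporter in the SC lineage, while DsRed is present in all cells. Single YFP-positive cells were sorted into 2 plates of 384 cells, each plate from its own mice, with males and females pooled, and libraries were made by Smart-Seq2. All cells belong to 1 group of healthy young adults, without an injury or a second genotype, and the plates are the 2 replicates.

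Mature nerves hold SCs that each wrap 1 large axon with myelin (mSC) and non-myelinating, or Remak, SCs (nm(R)SC) that ensheathe bundles of thin axons. The 10 genes encode proteins of unrelated kinds. Lgals3 encodes galectin-3, a lectin that binds galactose-containing sugars. Gpnmb encodes a transmembrane glycoprotein known from cells with many lysosomes. Fcgr2b encodes the inhibitory receptor for the constant part of immunoglobulin G. Entpd2 encodes an ectonucleotidase that removes phosphate from extracellular ATP. F3 encodes tissue factor, the cell-surface protein that starts blood coagulation. Aldh1a1 encodes an enzyme that oxidises retinaldehyde to retinoic acid, and Rarres2 encodes chemerin, a secreted chemoattractant whose name comes from its response to retinoids. Rab3b encodes a small GTPase of regulated vesicle release, Pdlim4 a PDZ and LIM domain protein bound to actin filaments, and Gsn gelsolin, which cuts and caps actin filaments.

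The genes lie on 8 chromosomes of GRCm38. F3 is at chromosome 3, 121723537 to 121735048 on the plus strand, Aldh1a1 at chromosome 19, 20492715 to 20643465, plus, Entpd2 at chromosome 2, 25395874 to 25401321, plus, and Gpnmb at chromosome 6, 49036546 to 49070929, plus. Promoter windows, from 250 bases before to 50 bases after an annotated start, were taken from RefSeq (GRCm38.p6), which gave 12 windows for 9 of the 10 genes. The other gene is Rarres2. The windows of these 4 genes are shown because they were the ones with a match to TGANTCA, the letters of the AP-1 motif, among 5 motifs searched on both strands after the values of the genes had been seen. The matches to any of the 5 motifs are in capitals.
F3, chr3:121723287-121723586, plus strand: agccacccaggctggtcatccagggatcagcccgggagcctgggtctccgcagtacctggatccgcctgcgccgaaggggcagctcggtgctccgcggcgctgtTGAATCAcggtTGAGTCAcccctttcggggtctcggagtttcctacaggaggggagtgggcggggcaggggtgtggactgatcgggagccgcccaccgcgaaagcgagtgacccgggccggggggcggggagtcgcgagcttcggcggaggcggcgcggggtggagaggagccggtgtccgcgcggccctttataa
Aldh1a1, chr19:20492333-20492632, plus strand: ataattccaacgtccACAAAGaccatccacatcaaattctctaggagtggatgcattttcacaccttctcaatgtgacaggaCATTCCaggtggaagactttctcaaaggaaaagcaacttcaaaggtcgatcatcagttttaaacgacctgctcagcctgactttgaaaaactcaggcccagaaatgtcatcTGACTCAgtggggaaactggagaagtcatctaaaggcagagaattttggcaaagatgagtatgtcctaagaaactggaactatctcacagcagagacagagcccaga
Entpd2, chr2:25395624-25395923, plus strand: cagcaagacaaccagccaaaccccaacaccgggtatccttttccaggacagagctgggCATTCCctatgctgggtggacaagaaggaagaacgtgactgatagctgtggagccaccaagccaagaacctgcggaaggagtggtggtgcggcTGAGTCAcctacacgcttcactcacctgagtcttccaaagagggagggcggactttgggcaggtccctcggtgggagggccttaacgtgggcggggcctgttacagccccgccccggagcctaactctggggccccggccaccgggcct
Gpnmb, chr6:49036268-49036567, plus strand: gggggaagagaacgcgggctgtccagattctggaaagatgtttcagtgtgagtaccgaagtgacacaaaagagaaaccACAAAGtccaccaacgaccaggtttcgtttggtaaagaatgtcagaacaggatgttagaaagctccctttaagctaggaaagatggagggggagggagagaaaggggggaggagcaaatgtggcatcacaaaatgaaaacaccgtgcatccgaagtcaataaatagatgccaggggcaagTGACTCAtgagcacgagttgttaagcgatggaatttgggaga
The F3 window held TGANTCA at 2 places, beginning 146 and 135 bases before the start. In the Aldh1a1 window it began 57 bases before the start, in the Entpd2 window 99 bases before it, and in the Gpnmb window at base 9 from the start. These distances are from the RefSeq start of each window, which for Gpnmb and Aldh1a1 differs from the first base of the gene coordinates above. TGANTCA was present in 4 of the 12 windows of the genes and in 7.81% of all 32851 windows of the same length. ACAAAG, letters bound by SOX factors, was present in 2 of the 12 (Gpnmb and Aldh1a1) and in 18.7% of all windows. GGAATG, letters bound by TEAD factors, stood in the windows of Entpd2 and Aldh1a1, in both on the minus strand, and in 14.7% of all windows. CACGTG (7.15% of all windows) and TCATGTG (3.77%) were in none of the 12. The windows of Lgals3, Pdlim4, Rab3b and Fcgr2b, the second window of Aldh1a1 and the 3 windows of Gsn held none of the 5. These are matches of letters and do not show binding.

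The table held 74280540 reads for plate 1 and 209404659 for plate 2, and 340 cells (88.5%) and 334 cells (87.0%) had 1500 or more detected genes and were kept. The cells were clustered without the 10 genes and without the families listed further on, and clusters were named by marker genes as mSC-like (126 and 75 cells) or nm(R)SC-like (212 and 256 cells), with 5 cells left unnamed. Because the plates differed in depth, shares of cells are given after each cell was thinned to 100000 reads, and a cell was counted as positive for a gene at 5 or more of these reads, which equals 50 CPM (CPM is the read count scaled to the total reads of a cell or group). This left 88 and 72 mSC-like and 135 and 241 nm(R)SC-like cells. Levels in CPM are read sums over all kept cells of a class, and shares carry 95% exact binomial (Clopper-Pearson) intervals, which cover counting error only.

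The nm(R)SC-like cells formed clusters 0 (73 and 145 cells), 1 (86 and 76) and 3 (53 and 35). Clusters 0 and 1 were led by Apoe and Scn7a among others, and cluster 3 by Ednrb, Tagln2 and Postn. Cluster 1 was mixed in plate 1. There, 38 of its 86 cells (44.2%) scored higher for mSC-like than for nm(R)SC-like markers, and its Prx level was 886 CPM, against 67.2 in cluster 0 and 65.4 in cluster 3. Over all nm(R)SC-like cells this held for 47 cells in plate 1 and 8 in plate 2, and results that rest on them are also given without them. The general SC markers Sox10, S100b and Erbb3 were at 50 CPM or more in both classes of both plates. Of the macrophage markers, Ptprc, Adgre1, Aif1 and C1qb were at 0 in both classes, and the 12 macrophage markers had a summed level of 16.3 and 25.5 CPM in the nm(R)SC-like class. In single cells of that class this sum reached 18598 CPM in plate 1 and 9556 CPM in plate 2. Of the fibroblast markers, Dpt and Clec3b were at 0, while Col1a1, Col1a2 and Col3a1 were read in both classes.

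Between the classes, which is the contrast that chose them, the 10 genes fell into 2 kinds. The shares of mSC-like cells with Lgals3, Pdlim4, Rab3b, Gpnmb, Fcgr2b, Entpd2, F3 and Aldh1a1 were at most 6.82%. Rarres2 and Gsn were read in many mSC-like cells as well, and differed between the classes in level more than in presence. For Rarres2 the mSC-like shares were 60.2% and 29.2%, and for Gsn 64.8% and 47.2%. Summed over the 10 genes, the level was 545 CPM in mSC-like cells of either plate, and in nm(R)SC-like cells it reached 8022 CPM in plate 1 and 15813 CPM in plate 2.

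**Figure D1:**
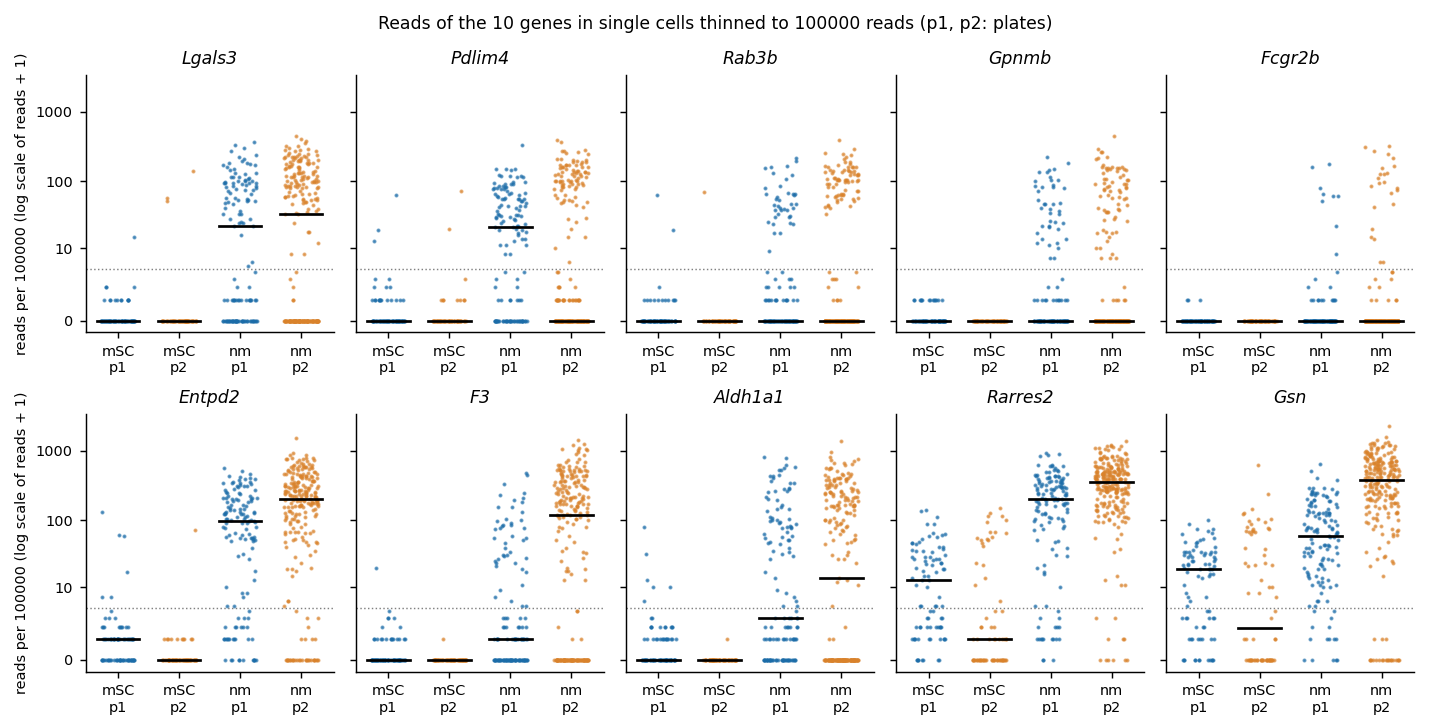
Reads of each of the 10 genes in single cells thinned to 100000 reads, on a log scale of reads + 1, by class and plate (blue, plate 1; orange, plate 2). Each point is a cell, black bars are medians and the dotted line is the limit of 5 reads. Most nm(R)SC-like cells lie above the limit for Entpd2, Rarres2 and Gsn, while for Lgals3, Pdlim4, Rab3b, Gpnmb, Fcgr2b, F3 and Aldh1a1 the cells divide into a group at or near 0 and a group mostly above 10 reads.

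Rarres2, Gsn and Entpd2 were read in most nm(R)SC-like cells. In plate 1, 116 of 135 cells were positive for Rarres2 (85.9%, interval 78.9% to 91.3%). In plate 2, 230 of 241 cells were (95.4%, interval 92.0% to 97.7%), so that the mean was 90.7% ± 6.72 (SD, n = 2). Gsn was positive in 120 cells (88.9%) and 219 cells (90.9%), 89.9% ± 1.40 (SD, n = 2). Entpd2 was positive in 103 cells (76.3%, interval 68.2% to 83.2%) and 206 cells (85.5%, interval 80.4% to 89.7%), 80.9% ± 6.49 (SD, n = 2). Without the cells that scored as mSC-like, these shares were 94.9% and 96.6% for Rarres2, 92.3% and 92.7% for Gsn and 87.2% in both plates for Entpd2. Chemerin, gelsolin and the ectonucleotidase transcripts were thus near general in this class, and Entpd2 alone of the 3 was also rare in mSC-like cells, with 6 of 88 and 1 of 72.

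The other genes marked subsets. Lgals3 was positive in 71 of 135 (52.6%, interval 43.8% to 61.2%) and 127 of 241 cells (52.7%, interval 46.2% to 59.1%). Aldh1a1 was positive in 66 (48.9%, interval 40.2% to 57.6%) and 125 cells (51.9%, interval 45.4% to 58.3%). For these 2 genes the plates differed by less than their counting intervals at the limit of 5 reads. At a limit of 1 read the shares were 68.1% and 54.8% for Lgals3 and 71.9% and 53.1% for Aldh1a1.
Rab3b was positive in 39 (28.9%) and 75 cells (31.1%), and Gpnmb in 42 (31.1%) and 73 cells (30.3%). Fcgr2b was the rarest, with 9 of 135 cells (6.67%, interval 3.09% to 12.3%) and 24 of 241 cells (9.96%, interval 6.49% to 14.5%). It was in none of the 88 and 72 mSC-like cells, which allows a share of up to 3.41% and 4.17% at a limit of 3 counts and of up to 4.11% and 4.99% by the exact interval, and it had 9 reads in all kept mSC-like cells of plate 1 and 0 in plate 2. The few Fcgr2b-positive cells were not weakly positive, with a median of 610 CPM in plate 1 and 960 CPM in plate 2.

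Pdlim4 and F3 differed between plates in opposite directions. In plate 1, Pdlim4 was positive in 83 of 135 cells (61.5%, interval 52.7% to 69.7%), and in plate 2 in 89 of 241 (36.9%, interval 30.8% to 43.4%), while its level was 390 and 504 CPM. F3 was positive in 45 cells (33.3%, interval 25.5% to 41.96%) and 152 cells (63.1%, interval 56.6% to 69.2%), and its level was 422 and 1885 CPM. For neither gene did the intervals of the plates overlap, and without the cells that scored as mSC-like the shares were 70.9% and 38.0% for Pdlim4 and 38.5% and 64.5% for F3. With 2 plates no test over plates is possible. At a limit of 1 read the F3 shares were 58.5% and 65.1%, and those of Pdlim4 were 71.1% and 48.5%. In mSC-like cells the same limit was met by 23.9% and 1.39% of cells for F3, and by 23.9% and 13.9% for Pdlim4. Plate 1 had fewer reads per cell but more detected genes, with a median of 3014 genes against 1630 in thinned nm(R)SC-like cells, and the part of this difference in the plate shares was not tested.

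Per length, which allows levels of different genes to be set side by side, the order of mean CPM per kilobase of exon in nm(R)SC-like cells was Rarres2 (1211), Gsn (907), Entpd2 (792), F3 (456), Lgals3 (366), Aldh1a1 (239), Pdlim4 (175), Rab3b (87.5), Gpnmb (40.6) and Fcgr2b (20.2). Of the first 5, each overlapped the next in its plate values, while Rarres2 lay wholly above Entpd2, F3 and Lgals3, and Entpd2 wholly above Lgals3. Rarres2 was at 1032 and 1390 CPM per kilobase in plates 1 and 2, Gsn at 323 and 1492, Entpd2 at 604 and 981, F3 at 167 and 746, and Lgals3 at 275 and 457. From Lgals3 on, each gene was above the next in both plates, without overlap of their plate values. A level over a class combines how many cells read the gene with how much each of them holds. In positive cells the median Aldh1a1 level was 1000 CPM in plate 1 and 2160 CPM in plate 2, and that of Rab3b was 460 and 1040 CPM.

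The counts of 2 genes cannot be separated from those of a neighbour. Entpd2 shares 612 exon bases on the same strand with Npdc1, which is 28.8% of its exon length. Rarres2 shares 892 bases, 33.6% of its exon length, with Lrrc61 on the opposite strand, and the strand setting of the counting is not stated. Across nm(R)SC-like cells the thinned reads of Lrrc61 followed those of Rarres2 with a Spearman rho of 0.99 in plate 1 and 0.98 in plate 2, and those of Npdc1 followed Entpd2 with 0.84 and 0.75. In mSC-like cells Npdc1 had more reads than Entpd2 (4247 and 4872 against 1245 and 167). The levels of Entpd2 and Rarres2 are uncertain for this reason.

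Among the nm(R)SC-like clusters, which were drawn without the 10 genes, tissue factor, the retinoic acid enzyme and gelsolin differed and were lowest in cluster 3. The test was edgeR's quasi-likelihood F test for any difference between the 3 clusters, on read sums per plate and cluster with the plate as a block, adjusted by Benjamini-Hochberg over 12543 genes. It called 3 of the 10 genes, where 0.295% of all genes tested were called. Other genes of the same cells drew the clusters, so that percentage is not the share that chance gives.

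F3 was at 496 and 2192 CPM in cluster 0 (plates 1 and 2), 681 and 1924 in cluster 1 and 20.9 and 66.8 in cluster 3. Cluster 0 was 22.7-fold and 32.4-fold above cluster 3 on the scale of CPM + 1 (edgeR adjusted p = 0.00116). These levels are read sums, in which cells with more reads weigh more. In cells thinned to equal depth the mean F3 reads were 36.8 and 234 in cluster 0 and 2.36 and 34.2 in cluster 3, a smaller fold in plate 2. Clusters 0 and 1 overlapped, so that F3 separated these from cluster 3. By cells, 24 of 50 and 108 of 144 cells of cluster 0 were positive, 39.5% and 50.7% of cluster 1, and 9.52% and 27.3% of cluster 3.

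Aldh1a1 was at 1870 and 1720 CPM in cluster 0, 1078 and 788 in cluster 1 and 78.6 and 150 in cluster 3 (edgeR adjusted p = 0.0129). The 3 clusters did not overlap in its level, and cluster 0 was 23.5-fold and 11.4-fold above cluster 3. Without the cells that scored as mSC-like, cluster 1 of plate 1 was at 1722 CPM, with 65.4% of cells positive, and so reached the values of cluster 0. Its positive cells made up 74.0% and 63.9% of cluster 0, 41.9% and 40.0% of cluster 1, and 26.2% and 13.6% of cluster 3. Gsn was at 1536 and 5564 CPM in cluster 0, 954 and 4348 in cluster 1 and 407 and 1023 in cluster 3 (edgeR adjusted p = 0.0325). Unlike the other 2, Gsn kept its presence there, with 88.1% and 86.4% of cluster 3 cells positive, and cluster 0 was 3.77-fold and 5.44-fold above cluster 3. The mean thinned reads of Gsn were 149 and 498 in cluster 0 and 38.8 and 133 in cluster 3.

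For the remaining genes the test made no call. Fcgr2b was at 143 and 224 CPM in cluster 0, 106 and 40.5 in cluster 1, and 2.31 and 0.183 in cluster 3, where 1 of 42 and 0 of 22 cells were positive (edgeR adjusted p = 0.0583). These levels rest on few cells. A single cell held 61.4% and 33.5% of the Fcgr2b reads of cluster 0, and 67.0% and 69.9% of those of cluster 1. Gpnmb was at 286 and 291 CPM in cluster 0, below those values in plate 1 (206 CPM) and above them in plate 2 in cluster 1, and at 63.5 and 40.1 CPM in cluster 3 (edgeR adjusted p = 0.177). In cluster 1, 20.9% and 29.3% of cells were positive for it. The values of both were lower in cluster 3 than in either other cluster in each plate. Entpd2 (adjusted p = 0.287), Rarres2 (0.339), Lgals3 (0.630), Rab3b (0.753) and Pdlim4 (0.925) gave larger values in the same edgeR test. Of these, Entpd2 (815 and 818 CPM in cluster 3) and Rarres2 (1731 and 1345) were also lowest in cluster 3 in each plate, and Lgals3 and Pdlim4 were not. Rab3b (63.7 and 259) was lowest there in plate 1, and in plate 2 only by read sums. In that plate 1 cell held 79.1% of the Rab3b reads of cluster 3, and mean thinned reads were 32.2 in cluster 3 and 29.0 in cluster 1. Pdlim4 was the most even of the 10 by this test, at 520 and 548 CPM in cluster 0, 350 and 434 in cluster 1 and 263 and 458 in cluster 3, and 64.3% and 54.5% of cluster 3 cells were positive for it. Lgals3 was highest in cluster 0, with 82.0% and 61.8% of cells positive against 34.9% and 36.0% in cluster 1 and 15 of 42 and 11 of 22 cells in cluster 3.

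Without the cells that scored as mSC-like, 6 of the 10 genes were called, among 56 of all genes. They were Gpnmb, Fcgr2b and Rarres2 in addition to the 3. Without the plate as a block edgeR called none of the 10 and none of all genes. An unadjusted p under 0.05 was given there to 4 of the 10 (Gpnmb, Fcgr2b, F3 and Aldh1a1) and to 694 of all genes. Of the 17 thinned cells of cluster 1 in plate 1 that scored as mSC-like, none was positive for Lgals3, Pdlim4, Rab3b, Gpnmb, Fcgr2b, Entpd2 or F3, while 11 were positive for Gsn, 4 for Rarres2 and 1 for Aldh1a1. Without such cells the level in cluster 1 of plate 1 was over 1.5 times as high for each of the 10 genes, at 1106 CPM for F3, 1444 for Gsn, 3171 for Rarres2, 2138 for Entpd2, 481 for Lgals3, 568 for Pdlim4, 462 for Rab3b, 335 for Gpnmb and 172 for Fcgr2b, beside the value of Aldh1a1 above. For Entpd2, Pdlim4, Rab3b, Gpnmb and Fcgr2b, this put cluster 1 above the level of all cells of cluster 0 in plate 1, where it had been below it. In the 26 that scored as nm(R)SC-like, Entpd2 was positive in 92.3%, Lgals3 in 57.7% and F3 in 65.4%. Cluster 3 also held cycling cells in plate 1, where its 5 cell-cycle markers (Mki67, Top2a, Ccnb1, Cdk1 and Birc5) summed to 1894 CPM, against at most 16.1 in the other 2 clusters. In plate 2 that sum was 27.7 CPM in cluster 3, and F3, Aldh1a1 and Gsn were low there too. The fibroblast markers summed to 4938 and 3018 CPM in cluster 3, mostly Col1a2, Col1a1 and Col3a1, and to between 1301 and 3369 in clusters 0 and 1. Their part in the differences was not tested.

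**Figure D2:**
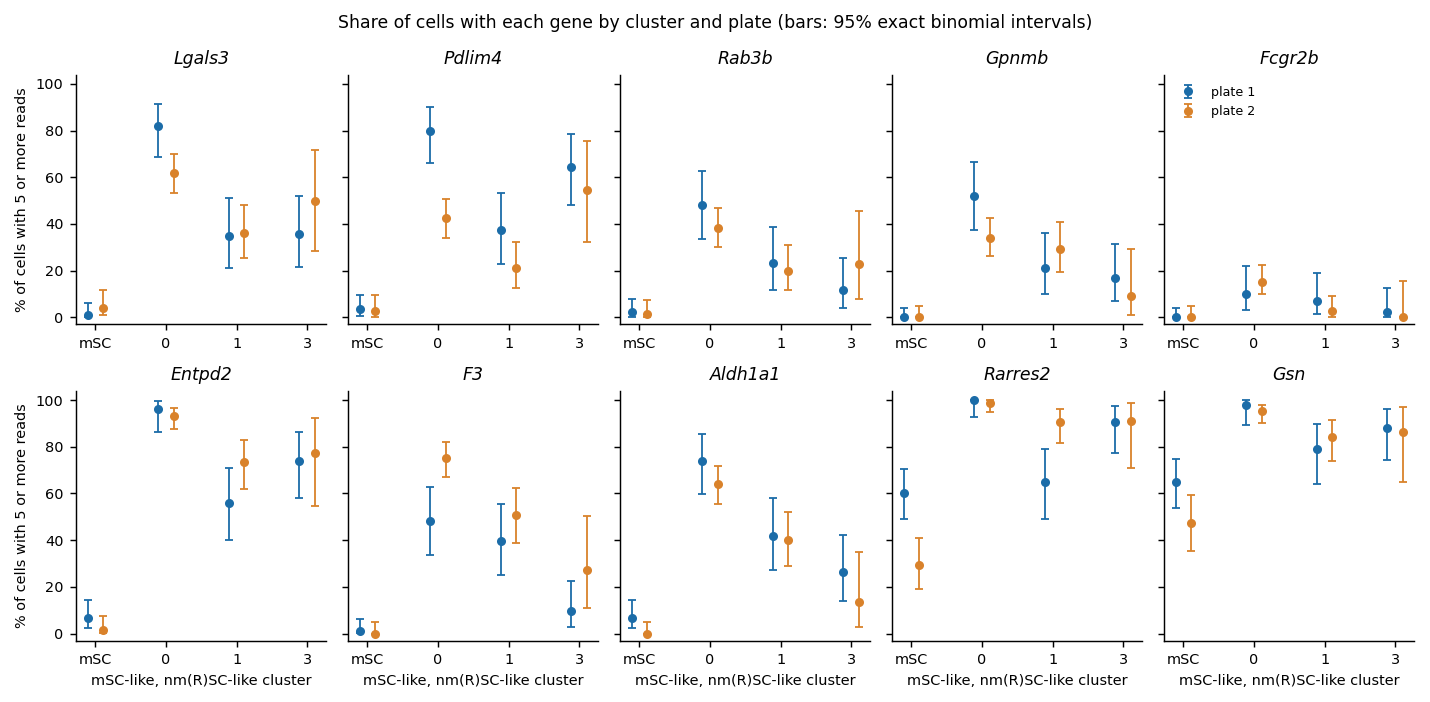
Percentage of cells with 5 or more of 100000 thinned reads of each gene, in mSC-like cells and in nm(R)SC-like clusters 0, 1 and 3, with 95% exact binomial intervals (blue, plate 1; orange, plate 2). F3 and Aldh1a1 are lowest in cluster 3 of the nm(R)SC-like clusters in both plates, Pdlim4 is at 64.3% and 54.5% there, and Rarres2 and Gsn stay above 86% in it.

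Single nm(R)SC-like cells held a median of 5 of the 10 genes in plate 1 and 6 in plate 2. At least 7 were positive in 52 of 135 cells (38.5%) and 86 of 241 cells (35.7%), and in no mSC-like cell, where the highest number was 5 and 4. In cluster 0 the share of cells with 7 or more was 66.0% and 46.5%, in cluster 1 37.2% and 21.3%, and in cluster 3 7.14% and 13.6%. Only 1 cell of each plate was positive for all 10. That number could not exceed the 9 and 24 cells positive for Fcgr2b, so it does not show whether the genes go together. The number of genes per cell had a rho of 0.165 and 0.326 with the number of detected genes. Cluster 1 of plate 1 was split, with cells at 0 to 3 genes and cells at 5 to 9 genes, and 17 of its 43 cells scored as mSC-like.

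**Figure D3:**
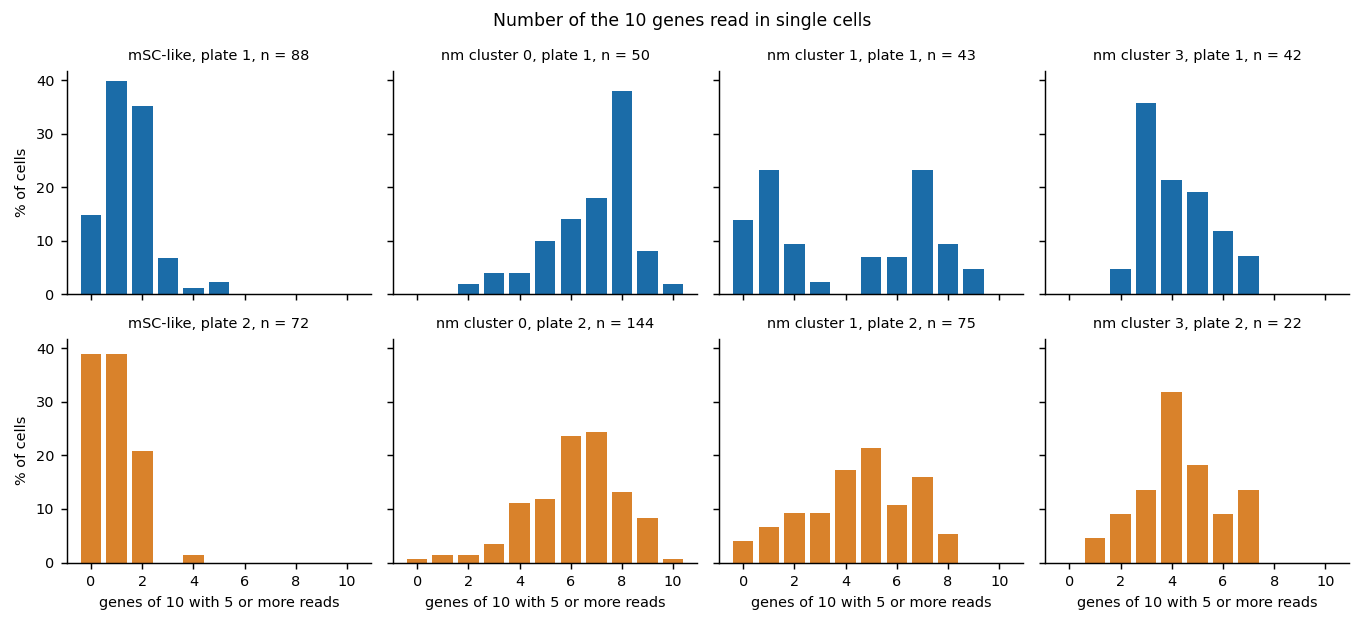
Percentage of cells by the number of the 10 genes that had 5 or more thinned reads, for mSC-like cells and each nm(R)SC-like cluster (upper row, plate 1; lower row, plate 2; n is the number of cells). The mSC-like cells lie at 0 to 5 genes, cluster 0 has its highest bars at 6 to 8, and cluster 3 reaches no more than 7.

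Co-expression was described by Spearman's rho across thinned nm(R)SC-like cells of each plate, for 45 pairs. All cells of a plate share mice and library preparation, so rho carries no p-value. In plate 1 all 45 pairs were above 0, with a median of 0.350 and a range of 0.0391 to 0.661. In plate 2, 44 of 45 were above 0, with a median of 0.140 and a range of -0.00869 to 0.394. Over all gene pairs, for genes that 10% or more of the same cells read, the median was 0.0407 in plate 1 and 0.0291 in plate 2, with 66.8% and 66.5% of pairs above 0. The 95th percentile of all gene pairs was 0.199 and 0.144, and 35 and 22 of the 45 pairs were above it. Without the cells that scored as mSC-like the medians of the 45 pairs were 0.263 and 0.124, and within cluster 0 alone they were 0.198 and 0.110. The number of pairs above the 95th percentile of the same cells was then 26 and 18, and within cluster 0 it was 21 and 14.

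The pairs with the highest rho joined the more abundant genes. Rarres2 and Gsn had a rho of 0.66 in plate 1 and 0.28 in plate 2, Entpd2 and Rarres2 of 0.65 and 0.19, and Entpd2 and Gsn of 0.64 and 0.31. Aldh1a1 and Rarres2 were at 0.58 and 0.37, and Aldh1a1 and Gsn at 0.57 and 0.36. F3 and Gsn were at 0.48 and 0.39, and F3 and Aldh1a1 at 0.46 and 0.29. Some pairs that were as high in plate 1 were low in plate 2, such as Lgals3 and Gsn (0.50 and 0.14), Gpnmb and Entpd2 (0.47 and 0.068) and Lgals3 and Entpd2 (0.47 and 0.082). All 45 F3-positive cells of plate 1 and 149 of 152 of plate 2 were also positive for Gsn. This was not particular to F3, since Gsn was also positive in nearly all cells positive for Lgals3 (100% and 99.2%), Gpnmb (100% and 98.6%) or Fcgr2b (100% in both plates). Among cells without F3, 83.3% and 78.7% were positive for Gsn. Of the F3-positive cells, 82.2% and 63.8% were positive for Aldh1a1, against 32.2% and 31.5% of the cells without F3.

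Pairs among Lgals3, Pdlim4, Rab3b, Gpnmb and Fcgr2b had a rho of at most 0.30 in plate 1 and 0.20 in plate 2. Some of these pairs were still above the 95th percentile of all gene pairs in both plates. These were Pdlim4 and Gpnmb (0.24 and 0.18), Lgals3 and Pdlim4 (0.21 and 0.17) and Lgals3 and Fcgr2b (0.21 and 0.20). Without the cells that scored as mSC-like, these pairs were at 0.11, 0.070 and 0.16 in plate 1, below the 95th percentile of 0.202. In plate 2 they were then at 0.17, 0.16 and 0.19, above the 95th percentile of 0.145. Rab3b and Gpnmb, each in about 30% of cells, had a rho of 0.11 and 0.094, and Pdlim4 and Rab3b of 0.039 and 0.13. Among Gpnmb-positive cells 35.7% and 42.5% were positive for Rab3b, and among the others 25.8% and 26.2%. Lgals3 and Gpnmb differed between plates, at 0.30 and 0.044. Galectin-3 was more frequent in the rare Fcgr2b cells. Of the Fcgr2b-positive cells 7 of 9 (77.8%) in plate 1 and 20 of 24 (83.3%) in plate 2 were positive for Lgals3, where 50.8% and 49.3% of the cells without Fcgr2b were. For Gpnmb the same shares were 44.4% and 54.2% against 30.2% and 27.6%.

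**Figure D4:**
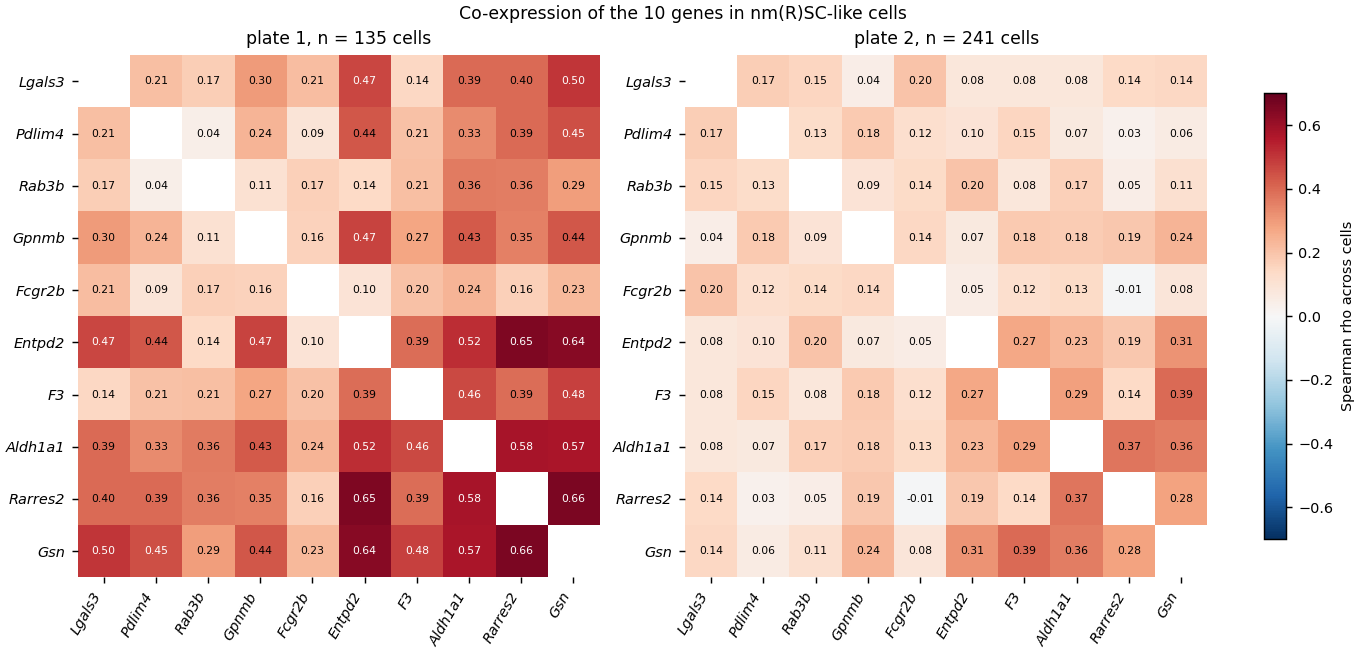
Spearman rho of thinned reads across nm(R)SC-like cells for the 45 pairs of the 10 genes in plate 1 (135 cells) and plate 2 (241 cells), on a colour scale from -0.7 (blue) to 0.7 (red). The highest values in each plate join pairs among Entpd2, F3, Aldh1a1, Rarres2 and Gsn, and the median over the 45 pairs is 0.350 in plate 1 and 0.140 in plate 2.

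Since Fcgr2b, Gpnmb and Lgals3 are also well known from macrophages, the cells that held them were checked for macrophage and SC markers. All 33 Fcgr2b-positive nm(R)SC-like cells were also positive for Scn7a, a marker used to name the class, against 72.6% and 87.6% of all thinned nm(R)SC-like cells of plates 1 and 2. Sox10 was positive in 7 of the 9 cells of plate 1 (77.8%, against 88.1% of all) and 17 of the 24 of plate 2 (70.8%, against 61.8%). Of the 33, 1 had a macrophage marker at the same limit, Lyz2, and none had 3. Of 115 Gpnmb-positive cells 3 had any of the 12 macrophage markers, and of 198 Lgals3-positive cells 8 had one. No Gpnmb-positive or Lgals3-positive cell had 3 of them. Among the other genes, Rab3b, Entpd2, Aldh1a1 and Rarres2 each had 1 positive cell with 3 of them, in plate 2.

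For each of the 10 genes the genes with the most like pattern over nm(R)SC-like cells were those with the highest lower rho of the 2 plates, among 3203 genes that reached 5 reads in at least 10% of cells of each plate. Aldh1a1 was most like Apoe (0.63 and 0.45), Rassf4 (0.61 and 0.42) and Clu (0.56 and 0.41). F3 was most like Sfrp5 (0.42 and 0.41), Gsn (0.48 and 0.39) and Serping1 (0.35 and 0.34). Gsn was most like Serping1 (0.65 and 0.43), Cpe (0.43 and 0.42) and Sparcl1 (0.66 and 0.42). Apart from its neighbour Lrrc61, Rarres2 was most like Apoe (0.81 and 0.44) and Aldh1a1. After Npdc1, Entpd2 was most like Prn (0.50 and 0.38) and Prnp (0.60 and 0.37).
Fcgr2b was most like C3 (0.45 and 0.39), which encodes the central complement protein, Serpina3n (0.38 and 0.29) and Gm45717 (0.29 and 0.22). Lgals3 was also most like Serpina3n (0.26 and 0.29), followed by Cdh19 (0.34 and 0.25) and Cadm4 (0.38 and 0.25). For Gpnmb these genes were Cst3 (0.39 and 0.28), Tmem176a (0.35 and 0.25) and Sfrp5 (0.33 and 0.25). Rab3b followed Apoe (0.33 and 0.27), Ahnak (0.34 and 0.25) and Ifitm2 (0.22 and 0.20), and genes with a pattern like that of Pdlim4 included Plat (0.22 and 0.25) and Ube2v1 (0.23 and 0.22).

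The relatives and partners of the 10 genes were compared between the classes to see whether whole families stood with them. The lists held 108 genes in 10 families, of which 68 passed the filter on low counts, and none of the 108 had been used to draw the clusters. In edgeR's quasi-likelihood test on 4 sums, with the plate as a block, 4 of the 68 were called higher in nm(R)SC-like cells, where 1.46% of all 13280 genes tested were called in this direction. The lists were chosen with earlier results of these data known, so this count does not show that the families hold more called genes than others. None of the 68 was called higher in mSC-like cells, where 1.56% of all genes were, and 1 of them, Serpine2, had an unadjusted p under 0.05 in that direction. By DESeq2 2 listed genes were called higher in mSC-like cells. The median log2 ratio of nm(R)SC-like over mSC-like was 0.26 over the listed genes and 0.13 over all genes tested.

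Beside tissue factor, 2 of 5 tested genes of coagulation and fibrinolysis were called. Thbd, which encodes thrombomodulin, a surface protein that turns thrombin towards protein C, had nm(R)SC-like levels of 139 and 147 CPM, against 2.10 and 3.18 CPM in mSC-like cells, a log2 ratio of 5.64 ± 0.57 (SE, edgeR adjusted p = 0.00360). Plat, the tissue-type plasminogen activator, was at 175 and 684 against 10.9 and 19.7 CPM, a log2 ratio of 4.42 ± 0.45 (SE, edgeR adjusted p = 0.00380). Coagulation factors F7 and F10, which act with tissue factor, had no reads in either class. Of 11 tested retinoid genes 1 was called, Crabp1, which encodes a binding protein for retinoic acid, with 114 and 21.2 against 0.701 and 0.112 CPM and a log2 ratio of 7.29 ± 0.96 (SE, edgeR adjusted p = 0.0104). Of 14 tested genes of extracellular nucleotides 1 was called, P2ry12, a receptor for ADP, with 67.5 and 58.7 against 3.91 and 3.01 CPM and a log2 ratio of 4.05 ± 0.79 (SE, edgeR adjusted p = 0.0378).
The other relatives did not pass the test. These were 6 tested genes of the galectin family, 4 of the PDZ and LIM family, 8 of Rab3 and its regulators, 11 of lysosomes and their regulators, 2 of Fc receptors and their signalling, 6 of the gelsolin family and actin severing, and 1 chemerin receptor, Ccrl2. The chemerin receptor Cmklr1 had no reads in either class.

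**Figure D5:**
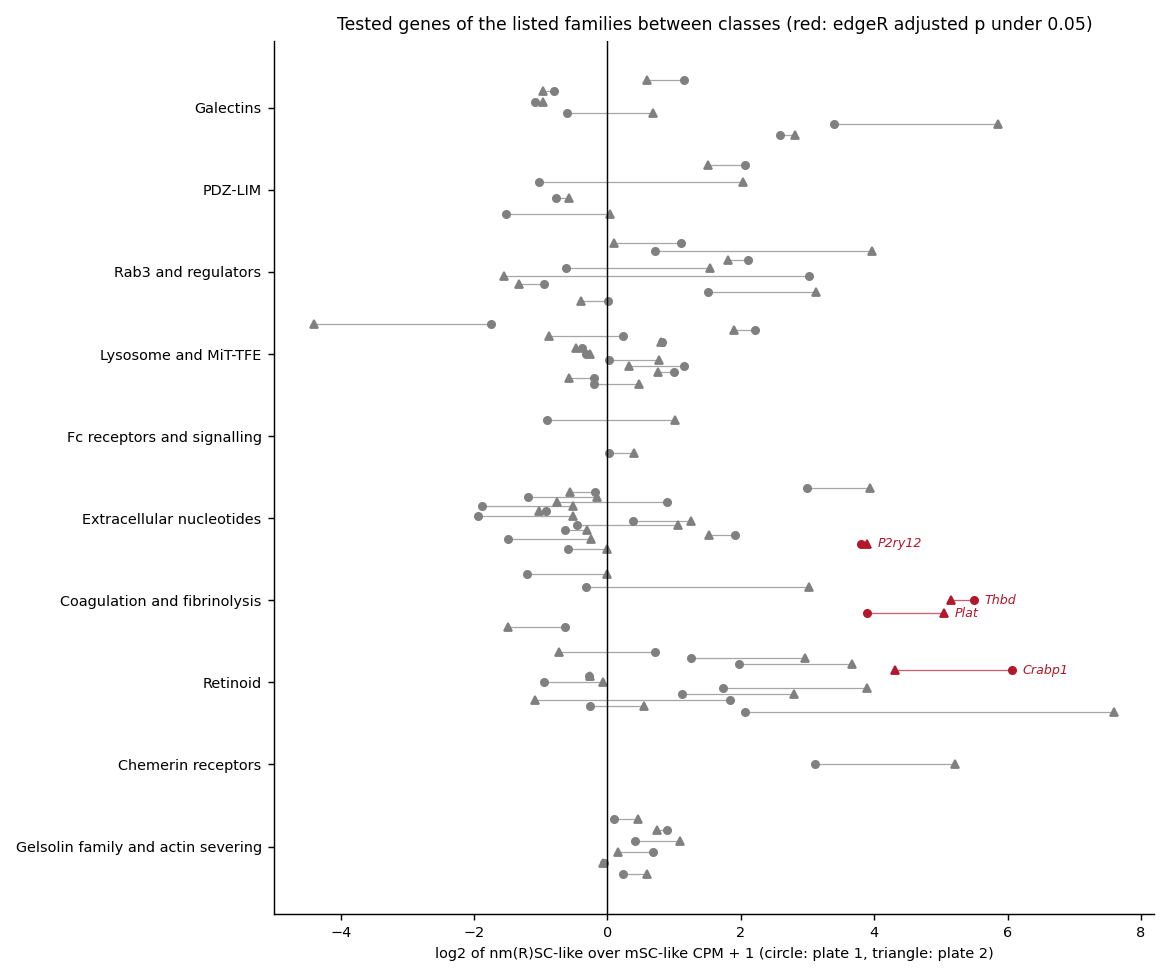
Log2 ratio of nm(R)SC-like over mSC-like levels (CPM + 1) for the 68 tested genes of the 10 listed families, 1 line per gene from plate 1 (circle) to plate 2 (triangle). The 4 genes in red, Thbd, Plat, Crabp1 and P2ry12, passed the edgeR test and lie at 3.80 or higher in both plates, and grey genes did not pass.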

How the data were processed

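Raw read counts, 1 column per cell and without molecular identifiers, were deposited by the authors as 1 table. The submitters' processing notes name bcl2fastq, STAR 2.6.1c, featureCounts and GRCm38.p5, and the study's methods name a human build for the same reads, while the identifiers are those of mouse genes. Strand and multi-mapping settings are not given in the sources used here. Of 25700 identifiers 25587 matched a symbol, and coordinates come from GENCODE M21 (GRCm38). The 10 genes, the family lists and the markers were chosen with earlier results of these data known.

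Cells with 1500 or more genes were kept, scaled to 100000 counts, integrated over plates by canonical correlation analysis (12 dimensions) and clustered at resolution 0.5 in Seurat 5.3.0 (R 4.3.3), without the 10 genes and the families. Variable genes were those with a mean between 0.1 and 8 and a dispersion above 1. A cluster took the name of the marker list with the higher mean standardised level (mSC-like: Cldn19, Drp2, Egr2, Fa2h, Gjb1, Mag, Mal, Pllp, Pmp22, Prx and Ugt8a, nm(R)SC-like: Cdh2, Chl1, Ednrb, Emp1, Gap43, Gfap, Itga1, Scn7a and Sema3e), with at least 3 of its markers at 50 CPM. Cell names assigned by the study were not used here, so the classes are rebuilt. Doublets were not called, as each well received a single cell.

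Reads were summed per plate and group and tested with edgeR 4.0.16 (quasi-likelihood, plate as a block, TMM factors, low genes removed by filterByExpr at a minimum count of 10, Benjamini-Hochberg adjustment, limit 0.05), with 2 residual degrees of freedom between clusters and 1 between classes. The block pairs groups, since those of 1 plate came from the same mice. For the class test, genes outside the lists were split into 2 random parts, each tested between classes built from the other part. Ratios of levels used a pseudocount of 1 CPM. DESeq2 1.42.0 was an alternative, with its p-values adjusted over all genes tested. Named genes were all 10, up to 3 most like genes for each, and up to 3 called genes per list and direction. A few genes that this rule or the marker lists name are not reported here.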

Additional observations from a re-analysis of the deposited data

Results flagged for a closer look

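Reads of the 10 genes were also present in cells that no comparison used. In the 44 cells of plate 1 and 50 cells of plate 2 with fewer than 1500 detected genes, 9 and 8 of the 10 genes had more than 3 reads, which is the limit used for a count of 0. Rarres2 had 125 reads there in plate 1 and 1994 in plate 2, Entpd2 had 45 and 693, and Rab3b had 11 and 1093, while Fcgr2b had 1 read in each plate. These cells held 105291 reads in plate 1 and 1034231 in plate 2. In the unnamed cluster, 3 of the 10 genes in plate 1 (2 cells) and 2 in plate 2 (3 cells) had more than 3 reads, led by Rarres2 with 8 and 10 reads.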

How the results depend on the processing

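Over the 10 genes the median share of positive nm(R)SC-like cells was 49.8%. It was 61.6% at a limit of 1 read, 45.2% at 20 reads, 53.4% with 1000 detected genes, 61.4% with 2500 and 54.8% without integration. Without the cells that scored as mSC-like, an alternative chosen after seeing the data, it was 54.5%, and leaving out 1 plate gave 50.7% to 52.3%. Between clusters 3 of the 10 genes were called among 37 of all genes. DESeq2, no filter on low counts and a resolution of 0.3 each called 5 (among 367, 101 and 61 of all genes), a resolution of 0.8 and the removal of mSC-scored cells each called 6 (among 50 and 56), and Bonferroni adjustment called 1, F3 (among 3). Without the replicate block 0 of the 10 were called by edgeR and 0 of all genes, with 4 of the 10 and 694 of all genes at an unadjusted p under 0.05. Of the listed genes, 4 were called higher in nm(R)SC-like cells, against 7 after thinning before summing, 13 with DESeq2, 2 with 2500 detected genes and 1 (Thbd) without the replicate block. Higher in mSC-like cells were 0 by edgeR and 2 by DESeq2 (Mitf and Serpine2). All genes called between classes were 401, against 1737 with DESeq2, 601 after thinning, 224 with 2500 genes and 135 without the block. No result changed direction. With 2500 detected genes only 1 nm(R)SC-like cluster held 20 cells in each plate, so clusters were not tested, and without 1 plate neither test had residual degrees of freedom. The median rho of pairs, 0.245 over both plates, was 0.140 without plate 1 and 0.350 without plate 2, and 0.154 to 0.256 under the other 6 alternatives, so its size depended on the plate. Limits are the 2 plates, rebuilt classes and reads that are not molecules.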
